A study of Nicotiana tabacum with 6 samples.

Results

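The transcripts described here are tobacco genes that were deposited singly in the public sequence databases as gene or mRNA records with a 2-letter accession prefix (AB, AF, AY, DQ, EF or EU), as opposed to the expressed sequence tags from which most probes of the array were designed. They were chosen by the form of the identifier printed beside each probe, without regard to their signal: 895 of the 43759 transcript probes carried such an identifier, and these probes stood for 700 of 40425 records. A probe entered the comparison if the scanner software marked it as well above background in 3 or more arrays of the 6, as it did for 771 probes of 597 records. All were measured in total RNA of suspension-cultured tobacco (Nicotiana tabacum) cells, 3 samples of the aluminium-tolerant line ALT301 and 3 of the wild-type line SL. Both lines were kept in darkness in a modified Murashige-Skoog medium without added aluminium and were labelled as being in logarithmic growth, and the series title calls them isogenic. The labels do not say how ALT301 was obtained. They number the samples without saying that each was its own culture, and the p-values therefore reflect the spread among these samples, technical or not.

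Aluminium becomes soluble in acid soil and stops plant growth, and suspension cells are used to study the toxicity without the tissues of a root. A gene record is usually deposited when a laboratory has cloned a gene in order to study it. Several records with consecutive numbers are commonly deposited together, and such records often hold members of a gene family or genes isolated in a single screen. Nicotiana tabacum carries the genomes of a pair of ancestral species, so most of its genes have a near-identical partner copy, and a probe may read both. The array files pair no identifier with a gene name, and 0 of the 700 records matched the RefSeq gene table of the species, so the genes are given by their record and no function is assigned to any of them. For the same reason, marker genes of cultured cells or of other tissues could not be examined. A lower level of a transcript in bulk RNA does not tell apart fewer cells that express it and less transcript per cell.

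Levels are log2 processed signals minus the 75th percentile of the array, so that 0 is the 75th percentile and each unit is a doubling. Differences are ALT301 minus SL on this scale. A probe was called where limma's adjusted p was below 0.05, with Benjamini-Hochberg adjustment over all 30942 transcript probes that passed the same background criterion. The median processed signal of an array lay between 248.7 and 325.3 intensity units, and between 68.0% and 70.8% of the transcript probes of an array were well above background. No spot was saturated. Precision is limited by there being 3 arrays of each line.

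Most of the gene records were expressed in both lines. Of the 895 probes, 715 were well above background on all 6 arrays and 94 on none. Another 12 probes passed the criterion in ALT301 alone, with all 3 of its arrays and none of SL well above background, and 16 did so in SL alone. These 28 probes entered the comparison through a single line, so their difference in detection was fixed by the criterion. They are included in the totals over the 771 probes, supply no support there, and are described separately below by lower bounds. A further 6 probes were well above background on 3 ALT301 arrays and 1 SL array, and 7 on 1 ALT301 array and 3 SL arrays. Those probes also needed the line with 3 arrays to enter, and they were not set apart. At the edge of the criterion, the 32 probes well above background on exactly 3 arrays had a median level of -6.99 (range -8.02 to -3.55), and the 12 probes just outside it, with 2 such arrays, had a median level of -7.56 (range -8.38 to -7.02).

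The share of probes that entered the comparison varied with the prefix. It was 90.3% for AB records (290 of 321 probes), 89.3% for EU (25 of 28), 88.5% for AY (139 of 157), 85.7% for EF (30 of 35), 82.7% for AF (191 of 231) and 78.0% for DQ (96 of 123). AB records came through the Japanese database and the others through GenBank. The transcripts were also brighter than the array at large: their median level was -0.31, against -1.36 over all probes tested. The corresponding median for cloned-gene records with a single-letter accession (347 probes) was 0.52. No test was made of these differences in level, which compare different probes.

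The cloned genes differed between the lines about as often as the rest of the array. Of the 771 probes compared, 572 (74.2%) were called, where 71.3% of all probes tested were called. Called higher in ALT301 were 300 (38.9%, background 34.3%) and called lower were 272 (35.3%, background 37%). The median difference was 0.02 log2 units over these probes and -0.04 over all probes tested, and the median absolute difference was 0.58 in both sets. Scaled instead on the E1A probes, which read RNAs spiked into the labelling reaction, and blocked by slide, the split turned to 148 higher and 220 lower (40.2% higher, against 52.4% in the main scaling), and without the block to 69 higher and 98 lower (41.3% higher). That scaling moved the median difference over all probes tested to -0.22, and called 46.6% of them with the block and 19.1% without it.

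Large differences were present in both directions. Differences of 2-fold or more were called for 130 probes higher in ALT301 (16.9%, background 13.3%) and 118 lower (15.3%, background 14.5%). Those of 8-fold or more numbered 27 higher (3.50%, background 2.25%) and 21 lower (2.72%, background 1.72%), of which 8 and 7 were detected in a single line, so that their size rests on values below background. Over the 715 probes well above background on all arrays, counted after the data were seen, 17 were 8-fold or more higher (2.38%, background 1.13%) and 12 lower (1.68%, background 0.962%). At 2-fold the same probes gave 110 higher (15.4%, background 12.2%) and 100 lower (14.0%, background 13.2%). A further 324 were called with smaller differences. The order at 2-fold rested on single arrays: without ALT301 replicate 1 there were 118 higher and 125 lower, and without SL replicate 2 there were 119 and 122. Spike-in scaling also turned the order, to 69 and 98, or 99 and 153 when blocked by slide. In 597 probes (77.4%, background 75.8%) the lines did not overlap, every array of one line lying above every array of the other.

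**Figure D1:**
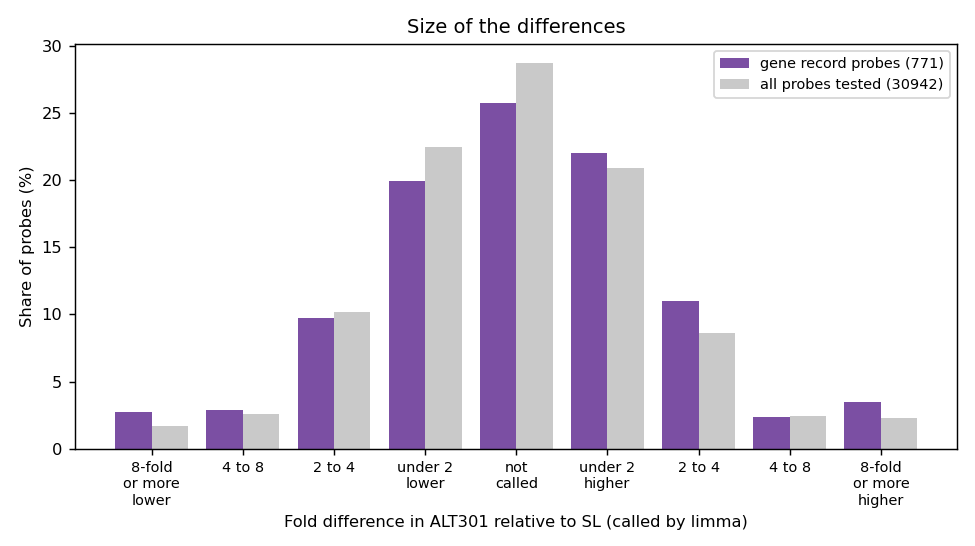
Share of probes (vertical axis, percent) in each class of fold difference in ALT301 relative to SL (horizontal axis), for the 771 gene-record probes (purple) and all 30942 probes tested (grey). The purple bars lie close to the grey ones in the middle classes, and stand at 3.50% against 2.25% for 8-fold or more higher and 2.72% against 1.72% for 8-fold or more lower; both sets include probes detected in 1 line only, whose fold rests on values below background.

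**Figure D2:**
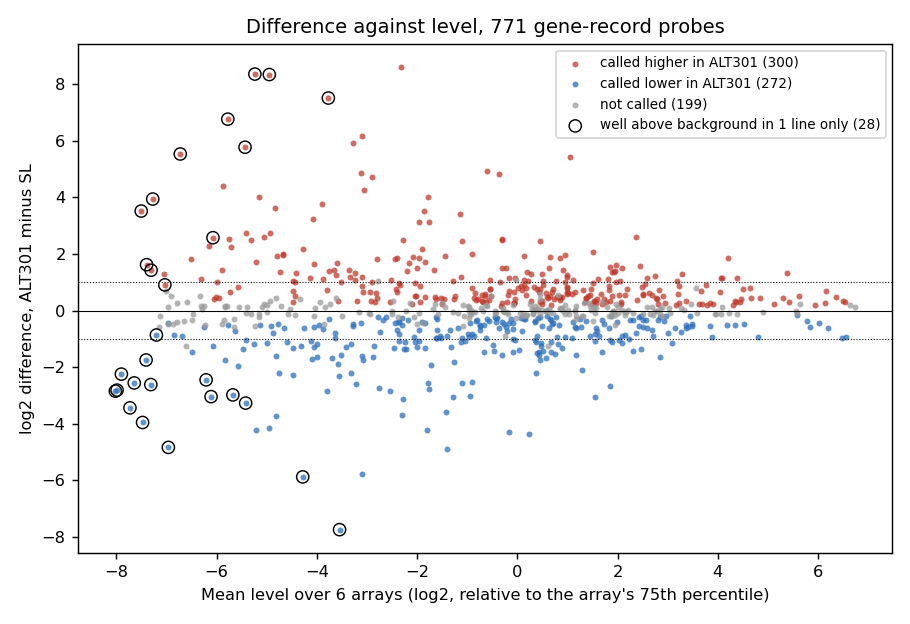
Log2 difference, ALT301 minus SL (vertical axis), against mean level over 6 arrays (horizontal axis, log2 relative to the array's 75th percentile) for each of the 771 probes; red and blue points were called higher and lower in ALT301, grey points were not called, and dotted lines mark 2-fold. Circled are the 28 probes well above background in 1 line only, which lie at the dim end and whose plotted difference rests on values below background.

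Differences of 2-fold or more were less frequent among bright transcripts. The 715 probes well above background on all arrays were ranked by the mean level of their brighter line, a choice made after the data were seen, and divided into 4 groups of nearly equal number. From dim to bright, 38.0%, 29.6%, 27.9% and 21.9% of the groups were called with at least 2-fold. The share called at any size ran the other way, at 70.4%, 73.7%, 74.9% and 77.0%. At 8-fold there was no such order: 1.68%, 5.03%, 1.68% and 1.12% were higher and 0.559%, 3.35%, 1.68% and 1.12% lower. Both lines had to be above background, which limited the fold that a dim probe could show. The SD between arrays, pooled over the lines, had a median of 0.15 log2 units in the dimmest group and 0.08 in the brightest. Of all probes tested that were well above background on every array, 72.7% were called and 25.4% were called with at least 2-fold. Those probes were not divided by level, so the order is not shown to be particular to gene records. The ranking also used the line means that are compared.

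Replicates 1 and 2 of each line were on slide 1, and replicate 3 of each was on slide 2. Of the 770 probes with a difference on both slides, whether called or not, 696 (90.4%) had the same sign on each, as did 89.4% of all probes tested. A difference of at least 2-fold with one sign was read on each slide alone for 224 of them (29.1%), where 24.6% of all probes tested did. Slide 2 holds 1 array per line, so its differences have no test of their own.

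Among transcripts measured in both lines, the highest difference belonged to record AB079023. Its probe A_95_P181947 had levels of 1.95, 1.95 and 2.05 in ALT301, against -6.79, -6.66 and -6.40 in SL. The lines were far from overlapping: the difference was 8.60 ± 0.11 log2 units (SE), or 388-fold (limma, adjusted p = 2.11e-07). A second probe of the same record, A_95_P011651, was bright in both lines, at 3.99, 3.94 and 4.05 in ALT301 and 3.77, 3.64 and 3.72 in SL, a difference of only 0.28 ± 0.06 (limma, adjusted p = 0.00673). This small difference lost its call under spike-in scaling blocked by slide (0.10). The neighbouring record AB079024 lay between, at 3.25, 3.21 and 3.27 in ALT301 against 1.65, 1.66 and 1.67 in SL (difference 1.58 ± 0.05, limma, adjusted p = 2.39e-06).

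Record AB176524 was higher in ALT301 on all 3 of its probes. Probe A_95_P027721 had levels of 0.06, 0.06 and -0.17 in ALT301, against -6.14, -6.16 and -6.24 in SL, a difference of 6.16 ± 0.08 (71.6-fold, limma, adjusted p = 2.24e-07). Probe A_95_P239709 gave 5.91 ± 0.08 and probe A_95_P259746 gave 2.53 ± 0.15, so the probes of this record shared the direction and not the size. The third probe was the brightest in SL, with levels of -1.46, -1.42 and -1.83.

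EF535611 was the brightest of the transcripts with differences of this order. It had levels of 3.63, 3.76 and 3.87 in ALT301, well into the upper part of the array, against -1.51, -1.72 and -1.74 in SL. The difference was 5.41 ± 0.10 (42.4-fold, limma, adjusted p = 4.65e-07). AB024600 behaved alike, at 1.73, 1.998 and 1.89 in ALT301 against -3.14, -3.18 and -2.87 in SL (difference 4.94 ± 0.11, limma, adjusted p = 9.79e-07). AY965683, just below the 12 highest probes and next in number to AY965682, stood at 1.99, 2.11 and 2.02 in ALT301 and at -2.78, -2.61 and -2.92 in SL (difference 4.81 ± 0.09, limma, adjusted p = 5.62e-07). In each of these records every ALT301 array exceeded every SL array by more than 4 log2 units. AY032674 (difference 4.85 ± 0.10) completes the records measured in both lines among the 12 probes with the highest differences.

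Record AY220080, which was chosen after its values were seen, fell just short of those 12 and had 3 probes that moved together. The first, A_95_P000401, had levels of -0.56, -0.60 and -0.51 in ALT301 against -5.28, -5.24 and -5.26 in SL. Its difference was 4.70 ± 0.05 (26.1-fold, limma, adjusted p = 1.48e-07), and the other probes gave 4.26 ± 0.07 and 3.77 ± 0.21.

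In the other direction, EF606850 had the lowest difference among transcripts measured in both lines. Its levels were -6.00, -6.17 and -5.80 in ALT301, close to the background limit, against -0.23, -0.15 and -0.23 in SL. The difference was -5.79 ± 0.10, which is 55.2-fold lower in ALT301 (limma, adjusted p = 4.68e-07). DQ152918 fell to -3.87, -3.83 and -3.86 in ALT301, against 0.98, 1.101 and 1.01 in SL (difference -4.88 ± 0.06, limma, adjusted p = 1.73e-07). AB023479 was the most variable of this group, with -3.23, -4.25 and -4.25 in ALT301 against 0.16, 0.28 and 0.51 in SL (difference -4.23 ± 0.30, limma, adjusted p = 5.03e-05). Its ALT301 replicate 1 lay 1 unit above the other ALT301 arrays, and the lines still did not overlap.

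DQ350359 was bright in SL and lower in ALT301 on both of its probes. Probe A_95_P115112 had levels of -2.01, -1.89 and -1.98 in ALT301, against 2.43, 2.39 and 2.41 in SL. Its difference of -4.37 ± 0.06 (20.6-fold lower, limma, adjusted p = 2.11e-07) was matched by -4.30 ± 0.06 on probe A_95_P255189. AB017533, with a difference of -3.72 ± 0.19 and all arrays above background, was also among the 12 probes with the lowest differences. AB035125 (-4.23 ± 0.10) and AY219853 (-4.15 ± 0.15) were well above background on all SL arrays but on only 1 and 2 of the ALT301 arrays.

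**Figure D3:**
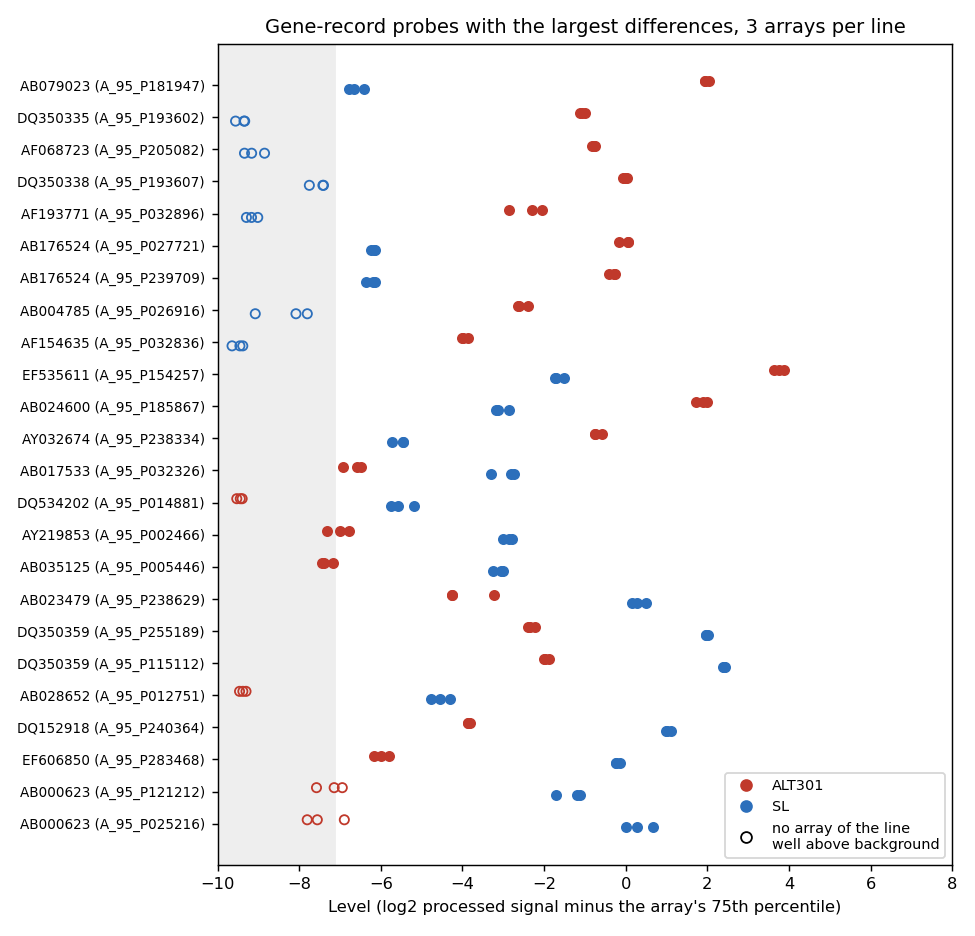
Level on each array (horizontal axis, log2 processed signal minus the array's 75th percentile) for the 12 highest and the 12 lowest differences among probes called and not overlapping, ordered by difference and labelled by record and probe; red points are the 3 ALT301 arrays and blue points the 3 SL arrays. Open points mark a line with no array well above background, and the grey zone lies below the highest of the 6 arrays' detection limits; AB079023 (A_95_P181947) stands near 2 in ALT301 and below -6 in SL.

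A different background correction changed the size of these differences where one line was dim. With normexp correction and an offset of 50, which by itself shrinks the differences of dim probes, the 12 probes of this set that were well above background on all arrays, 6 in each direction, kept their call. The 6 highest then lay between 3.92 and 6.96 and the 6 lowest between -4.48 and -2.25, where the processed signal gave 4.85 to 8.60 and -5.79 to -3.72. For single probes, normexp gave 6.96 for AB079023, 4.74 and 4.31 for the first and second probes of AB176524, 3.92 for AY032674, -4.37 for EF606850, -2.25 for AB017533, -2.25 for AB035125 and -2.44 for AY219853.

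The transcripts detected in ALT301 alone were 12 probes, 1.56% of those compared, where 1.76% of all probes tested were of this kind. With the scanner's call of positive and significant signal, 6 probes were read in ALT301 alone and 6 in SL alone. For the probes detected in a single line a bound replaces the fold difference. It sets the mean of the detected line against a limit for the other line. On each array that limit is the probe's own level or the lowest level among probes well above background, whichever was higher. The highest bound belonged to DQ350338, with levels of -0.06, 0.02 and -0.01 in ALT301 and no SL array well above background (at least 152-fold higher in ALT301). AF068723 followed at -0.75, -0.83 and -0.77 in ALT301 (at least 89.3-fold), and DQ350335 at -1.12, -1.06 and -0.995 (at least 73.5-fold). All 3 transcripts lay above the median level of the probes tested (-1.36) in every ALT301 sample. Lower bounds of 29.1-fold for AF193771, 26.2-fold for a probe of AB004785, 9.85-fold for AF154635 and 5.27-fold for AF158254 complete those of at least 4-fold. For 3 of the 12 the bound was below 2-fold, and a difference of that size was not shown.

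AB000623 led the 16 probes detected in SL alone (2.08% of those compared, background 2.01%). Its probe A_95_P025216 had levels of 0.67, 0.02 and 0.27 in SL and no ALT301 array read it well above background (at least 176-fold lower in ALT301). The other probe of the record, A_95_P121212, had levels of -1.13, -1.71 and -1.19 in SL and gave a bound of 54.9-fold, so both probes detected this transcript in SL only. The remaining SL transcripts were dimmer: the next bounds were 9.64-fold (AB095099), 7.38-fold (AY461432), 6.47-fold (AB028652), 6.28-fold (AF211689) and 4.72-fold (DQ213014). For AB095099 the ALT301 levels lay above the lowest level read as well above background. Its bound is therefore the fitted difference itself and not a lower limit. For 6 of the 16 the bound was below 2-fold. DQ534202, among the 12 probes with the lowest fitted difference, had a bound of only 3.34-fold.

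The brightest gene records differed little. AB052822 was the exception among the 6 brightest probes. Its probe A_95_P009281 had levels of 5.99, 6.19 and 6.08 in ALT301, against 7.08, 6.96 and 7.04 in SL, and its probe A_95_P257911 had 5.92, 6.06 and 6.03 in ALT301 against 6.98, 6.85 and 7.04 in SL. The differences were -0.94 ± 0.07 and -0.95 ± 0.08, both just under 2-fold (limma, adjusted p = 7.21e-05 and 7.82e-05). AF154654 and AF190657 were not called on their brightest probes (0.11 ± 0.09 and 0.20 ± 0.10). The other probe of AF154654, A_95_P001741, was also bright (mean level 5.78) and was called lower in ALT301 (-0.36 ± 0.09, limma, adjusted p = 0.0141). That call was lost under spike-in scaling blocked by slide. AF154660 (0.35 ± 0.09) and AF120093 (0.29 ± 0.10) were called higher in the main scaling and lost the call under spike-in scaling blocked by slide.

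The 6 probes well above background on all arrays with the smallest absolute difference belonged to AY619953, DQ358108, AF116915, EF051589, AF154643 and AF072908. Their differences lay within 0.01 log2 units of 0 and their mean levels between -0.68 and 2.78. Their standard errors lay between 0.06 and 0.11.

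Records with several probes allowed the differences to be read more than once in the same RNA, although such probes share a transcript and are not replicates. Of the 597 records compared, 453 had 1 probe, 120 had 2 and 24 had 3 to 5. The probes of one record differed by a median of 0.11 log2 units in their line difference, and in 132 of the 144 records the spread was below 1 unit. All probes were called higher in 46 records and all lower in 48, while in 21 no probe was called. A mixture of higher and not called was found in 13 records and of lower and not called in 14. Over the 120 records with exactly 2 probes, the differences correlated at 0.776 (Pearson's r across records, which share their arrays).

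In 2 records probes were called in opposite directions, AB074571 and AF194945, in neither of them with 2-fold differences on both sides. For AB074571, probe A_95_P249357 was higher in ALT301 (1.82 ± 0.56, dim in SL with an SD of 1.13) and probe A_95_P186347 lower (-0.62 ± 0.10). The call of the first probe was lost without any 1 of the ALT301 replicates (limma, adjusted p = 0.0527, 0.0621 and 0.0759), and its difference was 1.19 without SL replicate 2 and 0.58 under normexp, so the opposite directions in this record rest on an unstable value. The gap between probes exceeded 2 units in 5 records, of which AB079023 had the largest (8.32 units). AB017694, named after its values were seen, was another record with every probe well above background on all arrays. Its probe A_95_P013021 had levels of 0.48, 0.62 and 0.71 in ALT301 and 0.58, 0.66 and 0.53 in SL, where the lines overlapped. Its probe A_95_P135582 had -4.20, -4.06 and -4.20 in ALT301 against -0.48, -0.43 and -0.50 in SL, a difference of -3.69 ± 0.06 (limma, adjusted p = 4.19e-07). In AB095099 likewise, A_95_P118287 gave -0.09 ± 0.06 and A_95_P009466 was detected in SL alone. Probe sequences are not in the tables used here, so which copy or part of a gene each probe reads was not tested.

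**Figure D4:**
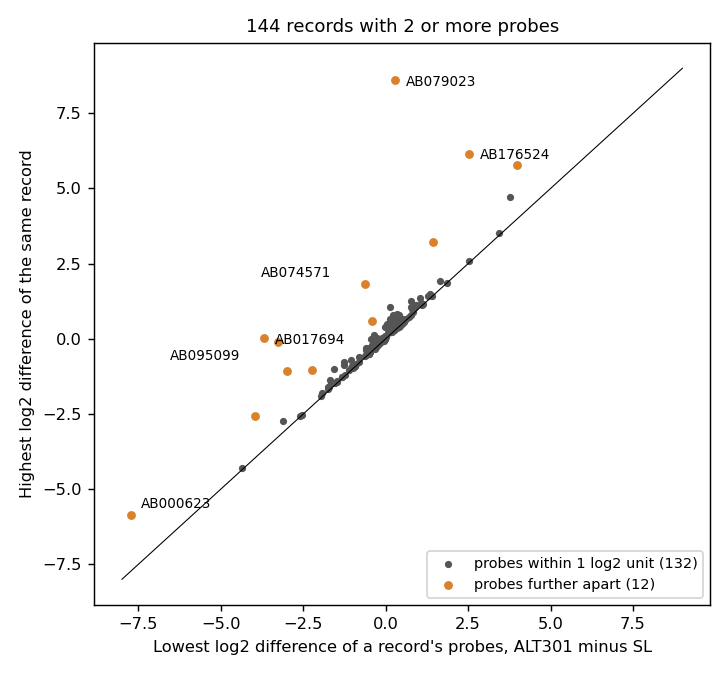
For each of the 144 records with 2 or more probes, the lowest (horizontal axis) and highest (vertical axis) log2 difference, ALT301 minus SL, among its probes; the line marks equality. Dark points are the 132 records whose probes lie within 1 unit, close to the line, and orange points the 12 further apart, led by AB079023 at 8.60 and 0.28.

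Consecutive accession numbers were common: 272 records formed 107 runs, of which 74 were pairs and the longest held 9. Neighbouring records did not closely share their differences. Over the 135 neighbouring pairs with both records compared, the differences correlated at 0.179 (Pearson's r) and 0.26 (Spearman's) across pairs, which overlap in longer runs. The median gap within a pair was 0.84 log2 units, and records that are not neighbours were not compared in this way. Of 78 pairs in which both records had a called probe, 51 had the same direction and 27 opposite directions. This count was not made for records that are not neighbours either, so it has no background beside it.

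The longest run was DQ350355 to DQ350363. Of its 9 records, 6 entered the comparison with 8 probes, and all 8 were called lower in ALT301, 6 of them at least 2-fold, with differences from -4.37 to -0.26. Over all probes tested, 37% were called lower and 14.5% at least 2-fold lower. The smallest, DQ350355 (-0.26 ± 0.07), lost its call under normexp (-0.18) and under spike-in scaling blocked by slide. This run includes DQ350359, described above. The wider group of 22 records numbered DQ350320 to DQ350363, delimited after the values were seen, held large differences in both directions. Of its 19 probes compared, 7 were called higher and 11 lower, with at least 2-fold differences in 6 and 9. DQ350338 and DQ350335, the transcripts detected only in ALT301 described above, belong to this group, as does DQ350322 with a difference of 3.13 ± 0.14. DQ350337, the immediate neighbour of DQ350338, was lower in ALT301, at -1.12 ± 0.08. Over the other 77 DQ probes compared, 24 were called higher and 32 lower, 10 and 19 of them at least 2-fold.

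**Figure D5:**
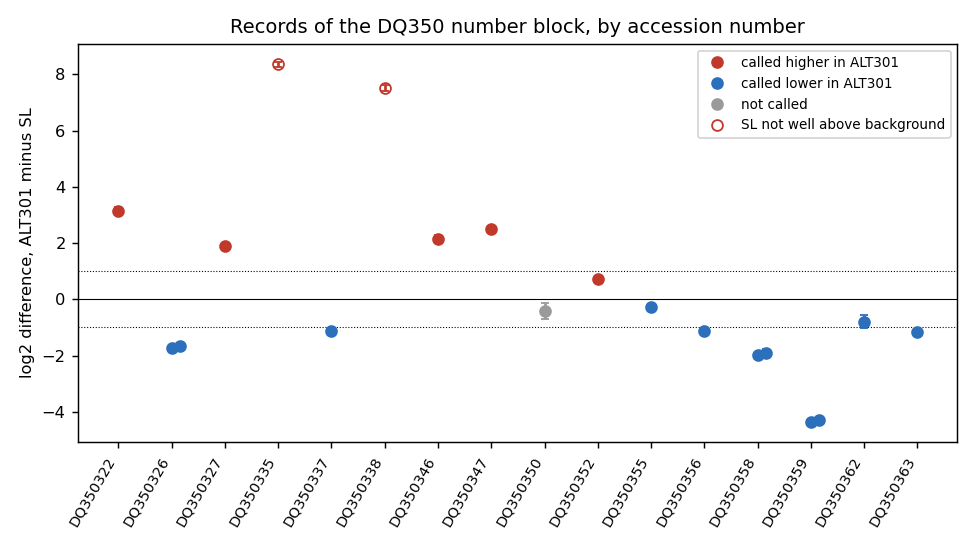
Log2 difference, ALT301 minus SL (vertical axis), for the 19 probes of the 16 compared records numbered DQ350320 to DQ350363, in order of accession number (horizontal axis); bars are standard errors of the limma fit and dotted lines mark 2-fold. Red points were called higher in ALT301, blue points lower and the grey point neither; open points rest on SL values below background, and the right-hand run from DQ350355 to DQ350363 lies entirely below 0.

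Of the other short runs, some went one way and some split between the lines, and those given here are examples. Runs not described further include AB055500 to AB055502 (4 probes, all called higher) and AB119475 to AB119477 (3 probes, all called lower). All probes compared were called lower in AF014051 to AF014053 (6 probes of 2 records, 5 of them of AF014053) and DQ213014 to DQ213015 (3 probes, 2 of them of DQ213015). In EF373046 to EF373047 (3 probes, 2 of them of EF373046) and AF249742 to AF249743 (3 probes, 2 of them of AF249743) all were called higher. Probes of one record share a transcript, so each of these runs compares only 2 records. Probe A_95_P121222 of AF249743 (0.78 ± 0.05) lost its call under spike-in scaling blocked by slide. Over all probes tested, 37% were called lower and 34.3% higher. Runs that split are described next. In AF362947 to AF362949, the first record was lower in ALT301 (1.47, 1.46 and 1.61, against 2.59, 2.80 and 2.56 in SL, difference -1.14 ± 0.09). The second was higher on both probes, with 0.52, 0.41 and 0.80 in ALT301 against -3.11, -2.81 and -2.63 in SL on probe A_95_P024071 (difference 3.42 ± 0.16, limma, adjusted p = 9.51e-06). The third was bright in both lines and higher in ALT301 (4.57, 4.71 and 4.68, against 3.49, 3.42 and 3.60 in SL, difference 1.15 ± 0.07). The 3 records therefore covered both directions, each without overlap between the lines.

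In AF049351 to AF049355, 4 records were higher in ALT301 and 1 lower. AF049354 had the largest rise, with levels of 3.50, 3.69 and 3.79 in ALT301 against 0.87, 1.16 and 1.16 in SL (difference 2.60 ± 0.12, limma, adjusted p = 8.32e-06). AF049352 ran the other way, at 0.24, 0.14 and 0.30 in ALT301 against 2.26, 2.30 and 2.44 in SL (difference -2.10 ± 0.08, limma, adjusted p = 4.21e-06). The smaller differences of AF049351 (0.52 ± 0.07) and of a probe of AF049353 (0.79 ± 0.06) lost their calls under spike-in scaling blocked by slide. In AB204829 to AB204831, the first record was dim and higher in ALT301 (1.005 ± 0.10), and the others were lower, at -2.83 ± 0.23 for AB204830 and -2.53 ± 0.09 and -2.54 ± 0.12 for the probes of AB204831. AF068724, the neighbour of the ALT301-only record AF068723, was lower in ALT301 on both probes (-1.32 ± 0.05 and -1.29 ± 0.05). The 7 records EF051135 to EF051141, which lie outside the naming rule and were picked with their values known, ranged from -0.70 to 0.80 over 10 probes. None of these was called with at least 2-fold, where 27.9% of all probes tested were.

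The prefixes are given by their counts of 2-fold calls, beside 13.3% higher and 14.5% lower over all probes tested. For DQ, 16 of 96 probes were higher in ALT301 (16.7%) and 28 lower (29.2%), with a median difference of -0.28. For AY, the numbers were 30 (21.6%) and 17 (12.2%) of 139, with a median difference of 0.13. AB records had 42 of 290 probes in each direction, and AF records had 34 higher and 29 lower of 191. EF had 6 higher and 1 lower of 30, and EU 2 higher and 1 lower of 25. The difference between prefixes was not tested.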

How the data were processed

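Total RNA of 6 cell samples was measured on 1-colour Agilent arrays. Per the file headers, the authors extracted the deposited signal intensities with Agilent Feature Extraction 11.5.1.1, which subtracts background and detrends within an array; the values are not scaled between arrays. A deposited table holds the authors' log2 values, and its making is not stated in the labels; set against the log2 scanner values scaled and centred per probe as described below, each of its columns correlated at 1 (to 4 digits), so it served as an alternative. Its column medians lay between -0.03 and 0.03, and the number of unmapped columns was 0.

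After removal of control spots, flagged spots (14 to 56 per array) were set missing, spots of a probe were averaged as log2 values, and levels were set relative to the 75th percentile of the array. limma 3.58.1 in R 4.3.3 (two-sided lmFit and eBayes fit of line alone) was fitted to all 30942 probes and tested on simulated data. Same-numbered arrays of the lines deviated together (r of 0.328, 0.142 and 0.105), where arrays of different numbers gave -0.21 to 0.09. By a limit of 0.1 the numbers could be read as pairs, which comes from the data, not from a label. The limit separates the cases only narrowly (0.105 against 0.0872). The main fit stayed that of line alone, without pairing, and the replicate block is given as an alternative. The 700 records and the rules for naming were chosen with earlier results of these data known. Named were the 12 highest and 12 lowest called, non-overlapping probes, one-line probes with a bound of at least 4-fold, the 6 brightest and the 6 with the smallest difference, probes sharing a record with these, and runs of consecutive numbers with at least 2 records called 2-fold; 117 probes met this rule and part of them is given. The planned gene lists and markers could not be used, since no identifier has a name here. A bound is the detected line's mean log2 level minus a limit for the other line, which is the array mean of either the probe's own level or the lowest level among probes well above background, whichever was higher; the bounds themselves were not tested.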

Additional observations from a re-analysis of the deposited data

How the results depend on the processing

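No probe called in the main processing was called in the opposite direction under any alternative run. The 572 calls numbered 533 to 560 with 1 array left out (277 to 291 higher, 255 to 275 lower; 118 to 131 at least 2-fold higher and 118 to 125 at least 2-fold lower; median difference 0.0039 to 0.029; 12 to 15 probes read in ALT301 alone and 16 to 19 in SL alone). Median and quantile scaling, the deposited table, normexp, both filters, flagged spots kept, the replicate block, the slide block and eBayes with trend and robust gave 535 to 581 calls, and slide 1 alone, added after the data were seen, 518. The replicate block called 576 probes; of the probes the naming rule takes it ended the call of A_95_P237919 (AF120093, adjusted p 0.0559) and made a call of A_95_P239384 (AY220479, adjusted p 0.00965, against 0.0726), and changed no other of them. Scaling on the E1A spike-in probes gave 167 calls (69 higher and 98 lower, the same numbers at 2-fold), where 19.1% of all probes tested were called. With the slide as a block it gave 368 (148 higher), where 46.6% of all probes tested were called. This scaling adds the spike-in variation of an array to each of its probes. The median difference was 0.0549 under median scaling, 0.0479 under normexp, 0.0495 with no filter and -0.167 under spike-in scaling with and without the block. With positive and significant signal as the detection call, 6 probes were read in ALT301 alone and 6 in SL alone. Signal near background limits the dim probes.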

Other observations

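A group of gene records stood higher in replicate 1 of both lines than in the other replicates, whichever line was higher. This was noticed in the data and is given as values only. Of the 771 probes compared, 29 exceeded the mean of replicates 2 and 3 by more than 0.5 log2 units in both ALT301 and SL, and 4 lay more than 0.5 units below it in both. The same count was not made over all probes tested, among which replicate 1 of the lines also deviated together (r of 0.328). The deviation is therefore not shown to be particular to gene records. Replicates 1 and 2 shared a slide in both lines.

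AF211536 was well above background on all arrays and had levels of -1.86, -3.70 and -3.47 in ALT301 and -1.05, -3.99 and -3.63 in SL. Its replicate 1 stood 1.72 units above the mean of replicates 2 and 3 in ALT301 and 2.76 units in SL, and the lines overlapped. Both probes of AF053077 showed the same, with 2.33 and 2.24 units in ALT301 and 1.36 and 1.29 in SL. Probe A_95_P082790 of that record had levels of 1.48, -0.93 and -0.58 in ALT301 and 2.11, 0.81 and 0.82 in SL. The lines overlapped and it was not called without the replicate block (limma, adjusted p = 0.166), yet it was lower in ALT301 in 3 of 3 same-numbered pairs and was called with the block (difference -1.26 ± 0.24, limma, adjusted p = 0.0118). The other probe, A_95_P014651, likewise was called only with the block (difference -0.88 ± 0.24, limma, adjusted p = 0.0319, against 0.329). Both probes were picked for the replicate 1 deviation that the block removes, and the pairing itself came from these data. The calls with the block therefore give no separate support. All 3 probes of AB020590 were among the 29, with 0.96 to 1.03 units in ALT301 and 0.87 to 0.90 in SL. In AF211615 the level was -2.04, -4.77 and -4.23 in ALT301, against -6.11 in SL replicate 1, while SL replicates 2 and 3 were not well above background.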
